A study of Mus musculus with 25 samples.

Results

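The Zfp42 locus lies on mouse chromosome 8 (build mm10) and was taken as the 17 bins of 10 kb from 43150001 to 43320000, which hold the Zfp42 promoter bin (43300001 to 43310000) and the neighbouring Triml genes. Every listed bin pair with at least 1 end in these bins was collected from 9 lists of chromatin contacts, which the authors named high-confidence. This gave 59 distinct pairs, 12 of them touching the Zfp42 bin, of 493983 distinct pairs in all lists. The choice used position alone and no measured value.

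Zfp42 encodes REX1, a zinc finger protein that is widely used as a marker of naive pluripotent cells and is silent in most differentiated cells. Triml1 and Triml2 belong to the tripartite motif family. KLF4 is a zinc finger transcription factor of the pluripotency network and 1 of the 4 factors used for reprogramming, and H3K27ac is an acetylated lysine of histone H3 that marks promoters and enhancers in use. A distal enhancer can act on a promoter when the chromatin between them folds so that the 2 elements come close, and such proximity is what ligation-based contact maps count.

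HiChIP ligates DNA ends that are close in the nucleus and enriches the products with an antibody, whereas Hi-C ligates without one. The 25 libraries fell into 9 groups. Embryonic stem (ES) cells of the V6.5 line in 2i medium gave 2 H3K27ac, 4 KLF4 and 2 Hi-C libraries. Cells labelled TKO, given the same line and medium and with no genotype stated in the labels, gave 3 H3K27ac libraries without doxycycline (0 h) and 3 after 24 h of it. Mouse embryonic fibroblasts (MEFs) came from E13.5 embryos heterozygous for an Oct4-GFP reporter, the doxycycline-inducible OKSM reprogramming cassette and the rtTA3 transactivator. MEFs at passage 3 gave 2 H3K27ac and 2 Hi-C libraries. The same MEFs kept in doxycycline and ascorbic acid gave 3 KLF4 libraries at day 3, from the bulk population, and 4 at day 6, from cells sorted for the surface marker SSEA1. Day and sorting therefore cannot be told apart.

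HiChIP libraries held 48.7 to 181 M contacts, of which 2.43 to 10.2 M were on chromosome 8. Contacts are given as CPM, the count per 1e6 contacts of the same chromosome and library. This scale matters here, since chromosome 8 took 6.01% to 6.34% of all contacts in the 6 ES HiChIP libraries and 4.88% to 5.005% in the other 15. The cause of that difference was not tested. The 6 of 8 ES marker genes with an annotated bin had more H3K27ac pairs in ES than in MEF. The 4 of 8 annotated fibroblast markers (Thy1, Col1a1, Vim, Pdgfrb) had fewer. Genes were named only on bins of pairs in the TKO lists, so a gene without H3K27ac pairs in TKO cells could not be counted. That selection favours ES over MEF, so the count of ES markers was partly set in advance. Libraries that agreed within sampling noise, in a group where other libraries did differ, were counted as 1 replicate, which left 2 replicates in ES KLF4 and in each TKO group. In day 6 KLF4 and in both Hi-C groups no library pair differed, so none were joined, and the spread there is no more than counting noise. Nothing in the labels says that libraries came from separate cultures, so spreads and p-values may be technical.

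In RefSeq (GRCm38.p6, the assembly of mm10) Zfp42 runs from 43295067 to 43307009 on the minus strand, so that bins with higher coordinates lie upstream of it. Triml2 runs from 43180463 to 43193884 and Triml1 from 43129806 to 43180494. The authors' annotation assigned Zfp42, Triml2 and Triml1 to the bins starting at 43300001, 43180001 and 43140001. The pseudogenes Gm6284 and Gm2221 lie among the Triml genes, and no RefSeq gene lies between Zfp42 and Adam26b, which starts at 43519864. The 250 bases before a transcript start of Zfp42 (43307010 to 43307259, minus strand) and of Triml2 (43180286 to 43180535, plus strand) are shown, from RefSeq, because these 2 promoter bins were the ends of the strongest long-range link of the locus. For Zfp42 that start is the end of the gene span given above. For Triml2 it is 43180536, which lies 73 bases inside the span, so the last 73 of its 250 bases are within the gene as RefSeq outlines it. They are written 5′ to 3′ on the strand of the gene. Capitals mark matches on either strand to GGGNGTGG, a KLF motif (reverse complement CCACNCCC), to the octamer ATGCAAAT (ATTTGCAT), which POU factors such as OCT4 bind, and to the SOX motif ACAAAG.
Zfp42: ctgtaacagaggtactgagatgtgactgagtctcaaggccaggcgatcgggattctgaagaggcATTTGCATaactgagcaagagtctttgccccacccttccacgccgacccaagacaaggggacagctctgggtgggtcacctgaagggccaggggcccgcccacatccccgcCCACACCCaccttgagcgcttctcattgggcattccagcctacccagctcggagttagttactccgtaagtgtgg
Triml2: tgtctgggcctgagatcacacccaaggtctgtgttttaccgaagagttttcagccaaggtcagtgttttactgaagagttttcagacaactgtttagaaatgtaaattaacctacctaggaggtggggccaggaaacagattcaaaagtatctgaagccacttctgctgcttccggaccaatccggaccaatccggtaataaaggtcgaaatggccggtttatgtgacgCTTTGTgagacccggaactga
The Zfp42 stretch held 1 KLF match, starting 75 bases before the transcript start, and 1 octamer match, starting 186 bases before it. The Triml2 stretch held 1 SOX match, starting 21 bases before the transcript start at 43180536 and thus within the gene span. Among the same 250 bases of all 32851 RefSeq promoters, 15.9% held the KLF motif, 1.60% the octamer and 16.5% the SOX motif. A match describes these letters and does not show binding.

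The first question was at which stages the locus makes contacts. In fibroblasts, and in bulk cells at day 3 of reprogramming, none were listed: MEF H3K27ac, MEF Hi-C and day 3 KLF4 each held 0 pairs. At day 6, KLF4 HiChIP listed 1 pair, and it joined the Zfp42 bin to the bin 20 kb upstream. ES H3K27ac held 25 pairs, ES KLF4 10 and ES Hi-C 13, while TKO cells held 47 H3K27ac pairs at 0 h and 37 at 24 h. A pair absent from a list may have any value that failed the authors' filters, among them a p-value under 0.1 in HiChIP and 0.01 in Hi-C. A minority of locus pairs had a low FDR, the authors' false discovery rate. It was under 0.1 for 5 of 25 in ES H3K27ac, 11 of 47 in TKO at 0 h and 7 of 37 at 24 h. In ES KLF4, day 6 KLF4 and ES Hi-C it was under 0.1 for 0 locus pairs. Of all listed chromosome 8 pairs, 4.78%, 7.11% and 5.08% were under 0.1 in those H3K27ac lists. The share was 0% in ES and day 6 KLF4 and 6.19% in ES Hi-C.

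**Figure D1:**
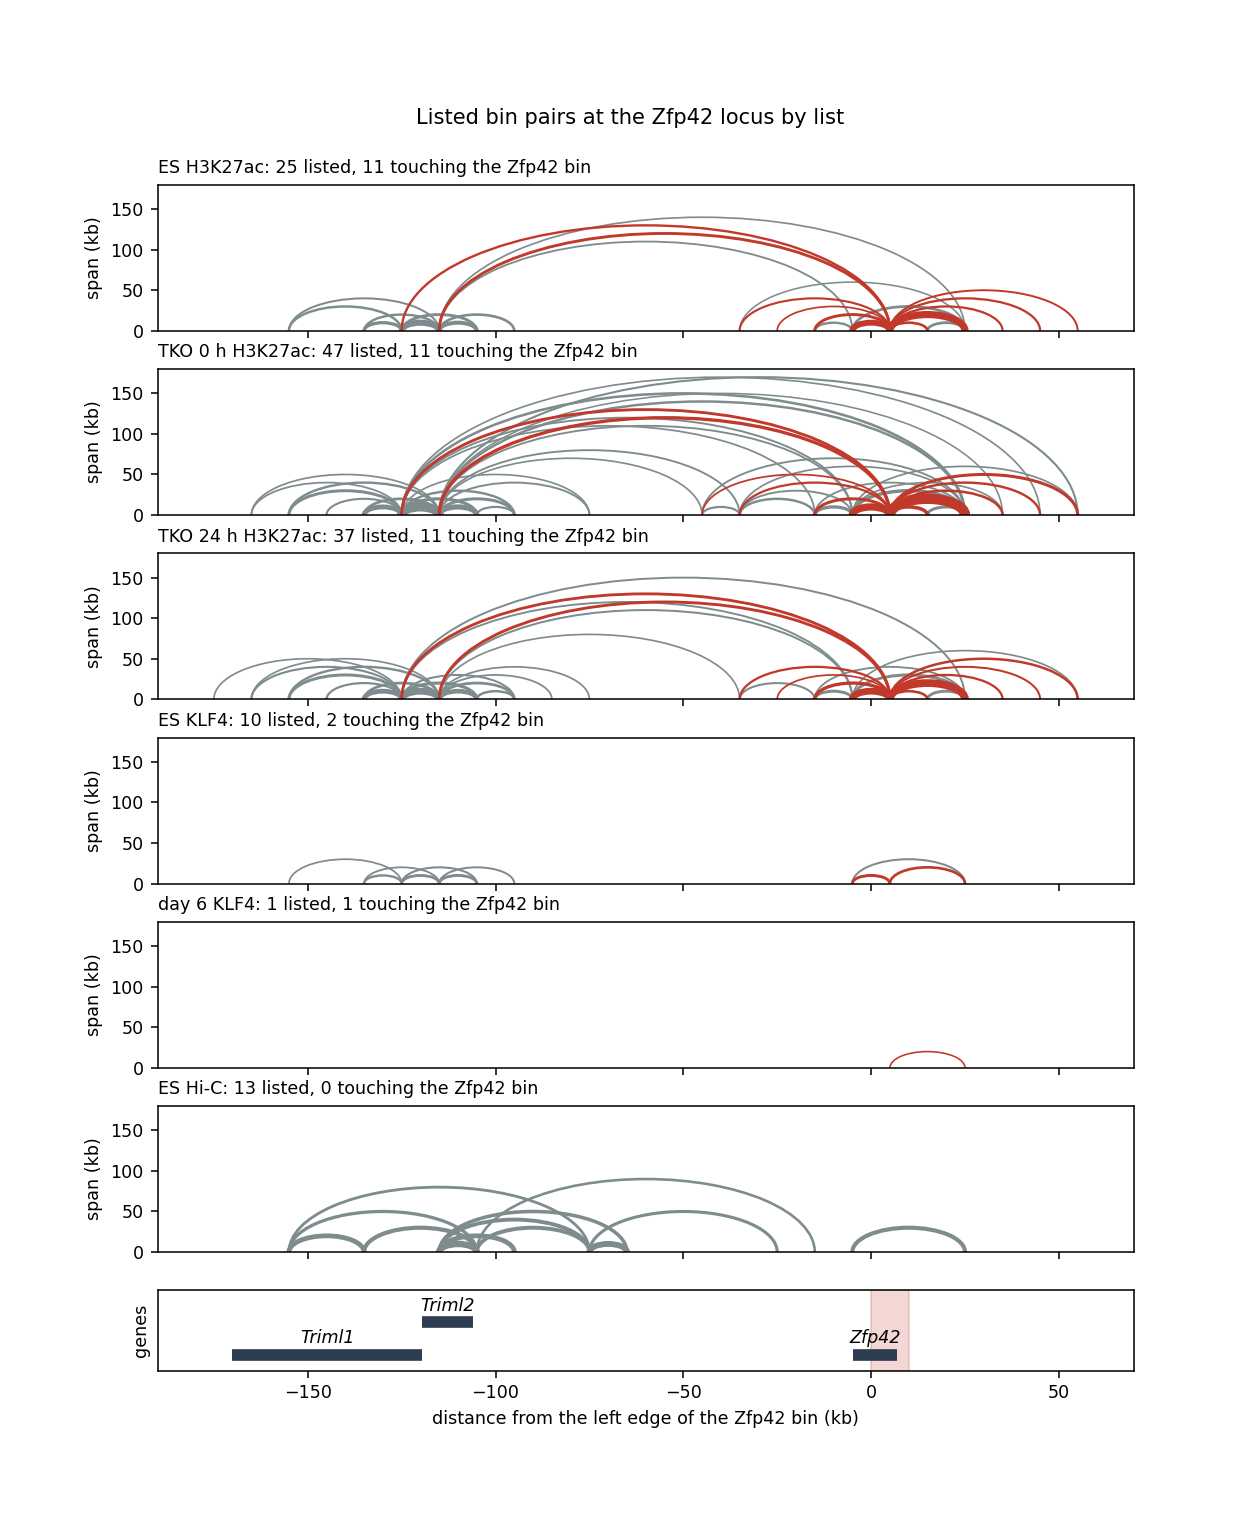
Arcs join the 2 bins of each listed pair in the 6 lists that held any locus pair. The x axis is the distance in kb from the left edge of the Zfp42 bin, the height of an arc is its span in kb, and line width grows with mean CPM (Hi-C: mean signal, on its own scale). Red arcs touch the Zfp42 bin. Long red arcs to the Triml2 side appear in the 3 H3K27ac lists and not in KLF4 or Hi-C, and the lists of MEF H3K27ac, MEF Hi-C and day 3 KLF4, not drawn, held no pair.

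Absence from an earlier list was common among ES pairs. Of all ES H3K27ac pairs 76.3% were not listed in MEF H3K27ac, of ES Hi-C pairs 60% were not listed in MEF Hi-C, and of ES KLF4 pairs 70% were not listed at day 3 and 91.5% not at day 6. The Zfp42 bin was rarer in being empty in several lists at once. Among the 2441 bins with at least as many ES H3K27ac pairs as its 11, 26.3% had none in MEF H3K27ac, and 3.48% had none in MEF H3K27ac, MEF Hi-C and day 3 KLF4. Anchors were absent well beyond the locus: the nearest listed MEF H3K27ac anchors lay at 41390001 and 44070001, with 2670 kb free of anchors between them. In MEF Hi-C the left neighbour was much closer, at 43120001, and the right one lay at 44430001. The flanks were sparse in ES cells too: outside the locus pairs, the nearest left anchor of ES H3K27ac lay at 41410001, and ES KLF4 had none between 41410001 and 44920001.

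The domain maps also differed between the cell types. The authors' MEF Hi-C domain around the locus was 3.6 Mb long, from 41440001 to 45040000. In ES Hi-C the same interval was divided at 43400000 into a domain that holds the locus and a second of 1.64 Mb, and this boundary lay 90 kb beyond the end of the Zfp42 bin. Of the listed pairs with both ends within 200 kb of that boundary, 0 crossed it in any list, and the 2 MEF lists and day 3 held no pair there. Outside the locus pairs, the nearest anchor to the right lay at 44920001 in ES KLF4 and at 45030001 in day 6 KLF4. In those lists 0 crossings therefore say nothing about the boundary. The share of crossing pairs at other boundaries was not computed, so the count does not show insulation. Domains were given once per cell type, so they have no replicate check.

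**Figure D2:**
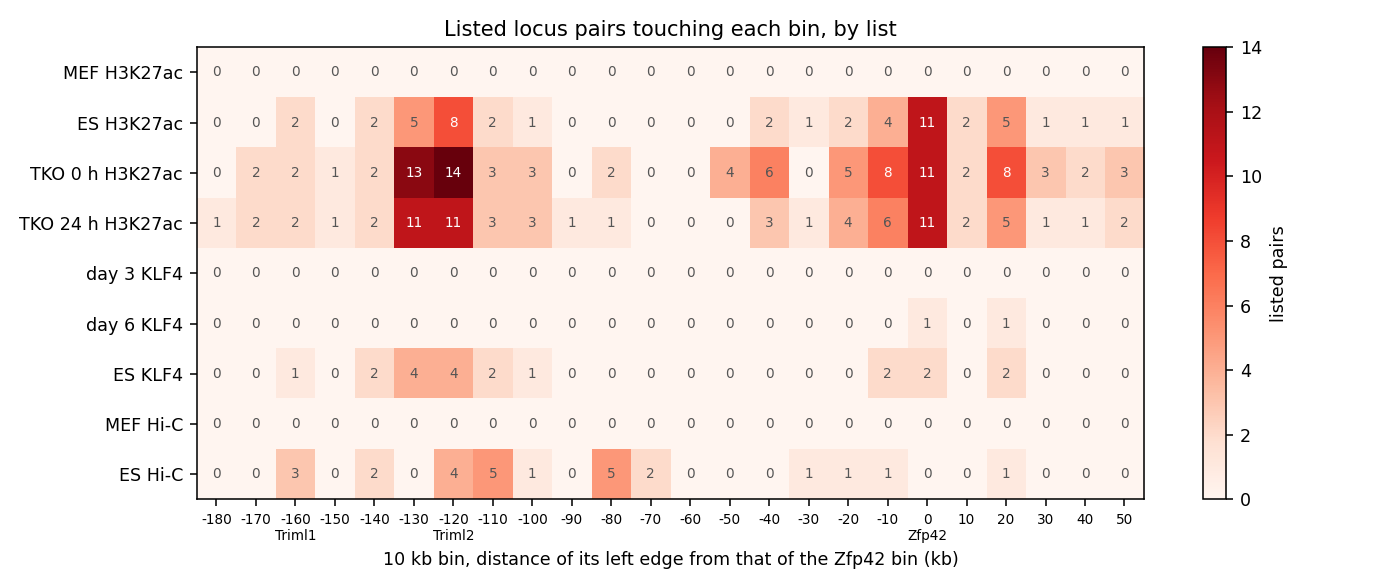
Number of listed locus pairs touching each 10 kb bin, for all 9 lists. The x axis gives the distance of a bin from the Zfp42 bin in kb, with the authors' gene names beneath. The Zfp42 bin held 11 pairs in each of the 3 H3K27ac lists of ES-type cells, 2 in ES KLF4, 1 at day 6 and 0 in the other 4 lists.

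In ES cells the Zfp42 bin was the most connected bin of the locus, with 11 H3K27ac pairs, followed by the Triml2 bin with 8. The order differed in other lists: TKO 0 h had 14 pairs at Triml2, 13 at the bin starting at 43170001 and 11 at Zfp42, all 3 bins had 11 at 24 h, and in ES KLF4 Triml2 had 4 against 2. Across the 9 lists it had 12 partner bins. These lay from 10 to 50 kb upstream, from 10 to 50 kb on the side of the gene body, and at 120 and 130 kb, and no list paired it with the bins between 60 and 110 kb away on that side. In the authors' annotation of the TKO lists, 9 of the 12 partner bins carried an H3K27ac peak at both times, 1 at 24 h only (20 kb on the gene-body side) and 2 at neither time. Of the 22 locus pairs found in all 3 H3K27ac lists of ES-type cells, 10 touched the Zfp42 bin.

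The strongest H3K27ac pair of the locus, in ES and at both TKO times, joined the Zfp42 bin to the bin 20 kb upstream (43320001 to 43330000), which carries no annotated gene. In ES H3K27ac it had 32.1 and 31.7 CPM in the 2 libraries (mean 31.9 ± 0.261, SD, n = 2), from 321 and 323 counts. This was 15.3 times the authors' expected count for the distance and ranked 4 of the 907 listed pairs of that span on chromosome 8. In MEF H3K27ac, where it was not listed, the weakest listed pair of this span on chromosome 8 had 4.004 CPM, and the ES value was 7.96 times that. The bin directly upstream (43310001 to 43320000) had much less contact with Zfp42 although it is nearer. It reached 7.89 and 8.83 CPM in ES, 2.88 times the expected count. The farther bin was higher in 8 of 8 H3K27ac libraries of ES and TKO cells, by 3.33 to 5.30-fold.

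Pairs on the gene-body side were led by the adjacent bin (43290001 to 43300000), which holds the 3′ part of Zfp42. It had 25.9 and 25.0 CPM in ES, 8.76 times the expected count. The bin 20 kb away followed with 10.4 and 9.62 CPM, and the bins 40 and 30 kb away had 5.94 ± 0.0653 and 3.91 ± 0.301 CPM (SD, n = 2). Upstream, the bins 30, 40 and 50 kb away had 6.58 ± 0.547, 6.64 ± 1.34 and 5.15 ± 0.205 CPM (SD, n = 2). The bins 30 and 40 kb away overlapped in their libraries, and both libraries of the bin 50 kb away lay below those of the other two.

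A long-range link joined Zfp42 to Triml2 across 120 kb. It had 10.1 and 9.62 CPM in the ES H3K27ac libraries, from 101 and 98 counts, and stood at 21.7 times the expected count. Among the 21 listed chromosome 8 pairs of that span it ranked 1. The bin beside it (43170001 to 43180000, inside Triml1 in RefSeq) formed a parallel pair of 130 kb with Zfp42, at 6.79 and 7.75 CPM and 16.9 times the expected count, which ranked 1 of 15. In TKO cells the Zfp42 and Triml2 pair ranked 1 of 31 at 0 h and 1 of 19 at 24 h, at 26.8 and 19.8 times the expected count. The 130 kb pair ranked 1 of 20 and 1 of 13. Relative to distance, therefore, the 2 promoter bins formed the strongest listed contact of their span on the chromosome in each of these 3 lists. The Triml2 bin also holds an end of Triml1 in RefSeq, and 10 kb bins cannot tell these genes apart. Neither pair was listed in any KLF4 or Hi-C list.

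**Figure D3:**
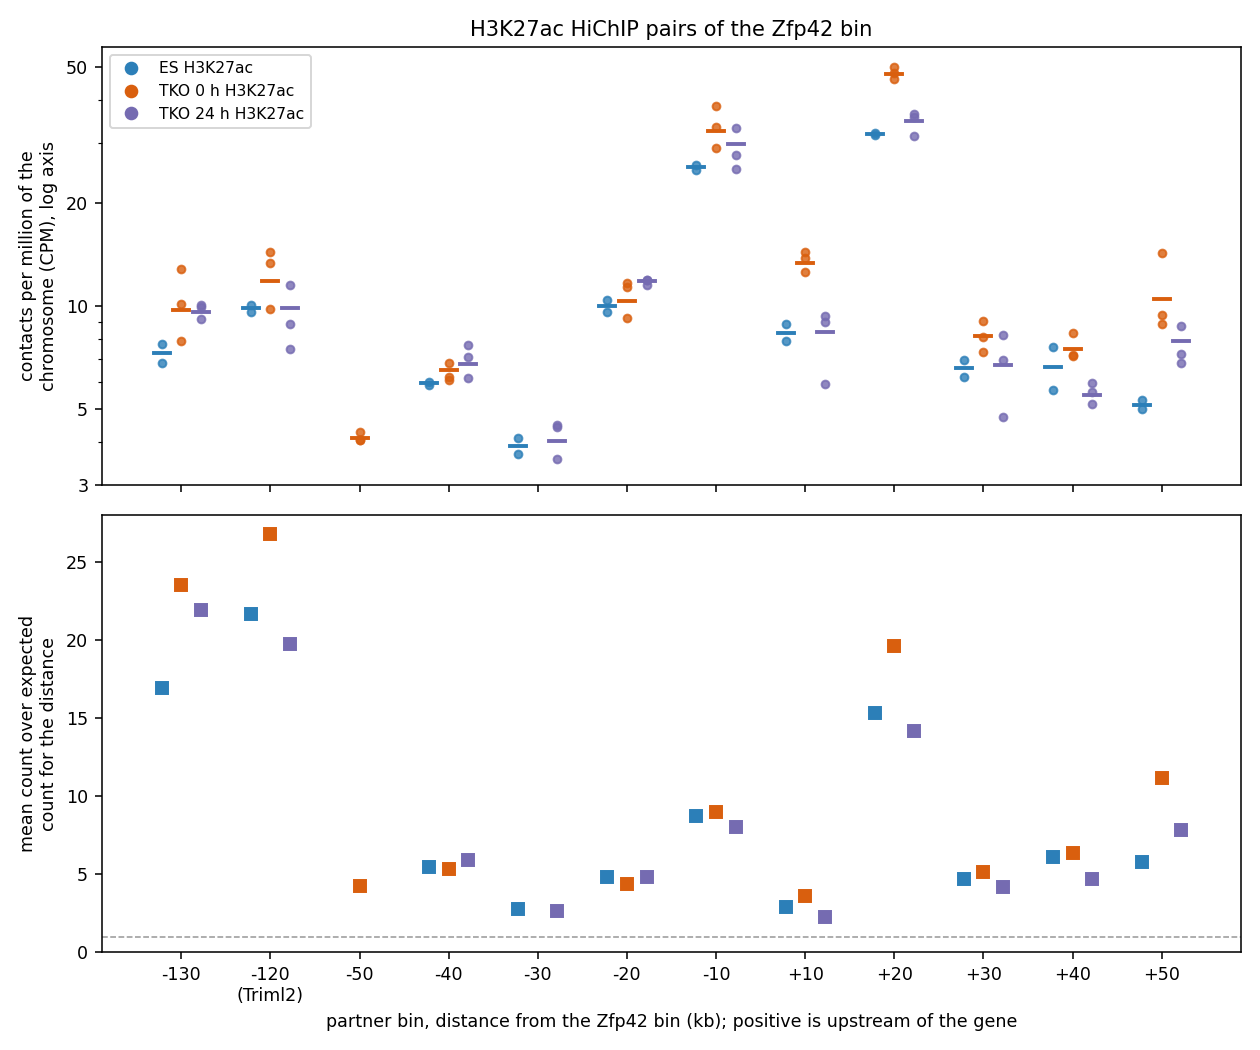
Pairs of the Zfp42 bin in the 3 H3K27ac lists of ES-type cells. Upper panel: CPM of each library (points, log axis) and the mean over replicates (bars); lower panel: mean count over the authors' expected count for the distance, with a dashed line at 1. Partner bins are ordered by distance in kb from the Zfp42 bin; the bin 20 kb upstream has the highest CPM, while the bins 120 and 130 kb away have the highest ratios in ES and at both TKO times.

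Around Triml2 the contacts formed a second, mostly local set. Its strongest ES pair joined the bins starting at 43170001 and 43180001, with 28.4 and 24.7 CPM (9.15 times the expected count), and the next joined 43180001 and 43190001, with 14.5 and 16.8 CPM. The Triml2 bin also reached past Zfp42 to the bin 20 kb upstream of it, a span of 140 kb, with 4.39 and 3.24 CPM. The bin annotated as Triml1 had 2 H3K27ac pairs in ES, to the Triml2 bin and the bin beside it. Triml1 in RefSeq also covers the bins starting at 43130001 and 43150001, which had 0 each, and those starting at 43160001 and 43170001, which had 2 and 5. It ends at 43180494, inside the Triml2 bin.

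KLF4 HiChIP of ES cells listed 10 locus pairs, all of which were also in ES H3K27ac, against 74% of all ES KLF4 pairs. None spanned more than 30 kb. The Zfp42 bin took part in 2 of them. With the adjacent gene-body bin it had 10.1, 10.7, 10.6 and 8.98 CPM in the 4 libraries, and with the bin 20 kb upstream 7.40, 6.09, 10.8 and 10.7 CPM. The highest of the other 8 pairs joined 43180001 and 43190001, at 10.1 ± 0.654 CPM (SD, n = 2).

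The comparison with day 6 asked how the KLF4 contact of Zfp42 differed between day 6 and ES cells. Its upstream pair, the only locus pair common to both lists, had 5.34, 3.02, 2.29 and 2.48 CPM at day 6, from 9 to 16 counts, and every ES library was above every day 6 library. It was higher in ES by 1.29 ± 0.24 on the log2 scale (SE; edgeR quasi-likelihood test, Benjamini-Hochberg adjusted p = 0.000816). Of the 2076 pairs tested, 3.37% were called, 2.6% higher and 0.771% lower in ES. Tested pairs of chromosome 8 had a median change of 0.29, and scaled to chromosome 8 contacts alone the pair was 1.57 higher, where the chromosome's median was 0.57. On that scale 55 of the 84 tested chromosome 8 pairs were called higher in ES and 0 lower, and 2.38% had a negative change. How many tested pairs had no overlap between ES and day 6 libraries was not counted. The 4 day 6 libraries differed from each other by no more than counting noise, and DESeq2 gave the upstream pair no adjusted p, with an unadjusted p under 0.05. When this contact arises cannot be read from the lists. At day 3 the weakest listed chromosome 8 pair of 20 kb had 4.003 CPM, above the mean of 3.28 CPM that the upstream pair had at day 6.

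**Figure D4:**
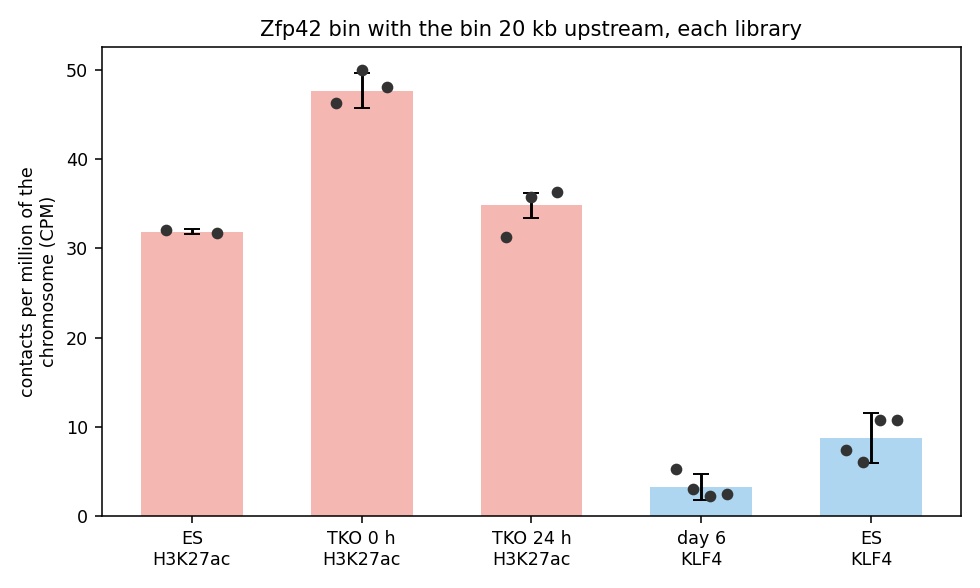
CPM of the pair formed by the Zfp42 bin and the bin 20 kb upstream, in the 5 lists that hold it. Bars give the mean over replicates, error bars the SD over replicates (4 separate libraries at day 6 and 2 replicates in each other group, after averaging of joined libraries), and points the libraries. All ES KLF4 points lie above all day 6 points, and all TKO 0 h points above all 24 h points. Most tested chromosome 8 pairs changed in these same directions when scaled to chromosome 8 contacts.

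ES Hi-C gave another picture of the locus. Of its 13 pairs, 0 touched the Zfp42 bin, and 3 were also listed in ES H3K27ac (23.1%, against 12.1% of all ES Hi-C pairs). Among the 2441 bins with at least 11 ES H3K27ac pairs, 5.37% had no ES Hi-C pair. The Hi-C pairs gathered instead around the Triml genes: 10 of the 13 had both ends between the bin of Triml1 and the bin starting at 43230001. The bin starting at 43220001 and that starting at 43190001 had 5 pairs each. The strongest joined 43180001 and 43190001, with a Hi-C signal of 62.3 and 51.7, at 1.85 times the expected count. Ratios to the expected count ran from 1.46 to 2.199 in this list. The 1 Hi-C pair across the Zfp42 gene joined the bins 10 kb on the gene-body side and 20 kb upstream, with a signal of 29.9 and 35.4. Hi-C signals are scaled differently from CPM and were not compared with them in size.

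Of the 25 ES H3K27ac pairs of the locus, 24 (96%) were listed in TKO at 0 h, against 77.6% of all ES pairs. They made up 51.1% of the 47 TKO pairs. In the edgeR test of the 24 common pairs, 1 was called: the Zfp42 bin with the bin 20 kb on the gene-body side was lower in TKO by 0.51 on the log2 scale (SE 0.16, adjusted p = 0.0174). The call was lost without ES replicate 1 (edgeR adjusted p = 0.134) and without TKO 0 h replicate 1 (0.143), with contact totals (-0.21, 0.344) and with DESeq2 (0.259), and the sign turned with chromosome 8 totals (0.082). On the CPM scale the pair was not lower, at 10.4 ± 1.64 in TKO and 10.001 ± 0.546 in ES (SD, n = 2). Of all 58574 pairs tested, 16.5% were called, 9.14% higher and 7.39% lower. Directions here depend on the scaling. Contact totals without TMM factors called 6 locus pairs, all higher in TKO, and totals of chromosome 8 called 11, all higher, while the first moved the median of all tested pairs from -0.01 to 0.29 and the second that of chromosome 8 pairs from -0.28 to 0.31. For the upstream pair the log2 difference was -0.01 ± 0.09 (SE), although its CPM were 46.3, 50.01 and 48.1 in TKO at 0 h and 32.1 and 31.7 in ES.

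In TKO cells after 24 h of doxycycline, 1 contact of the Zfp42 bin was called lower, with its nearest upstream bin. That pair with the adjacent upstream bin had 12.5, 13.8 and 14.4 CPM at 0 h and 5.91, 9.35 and 8.96 CPM at 24 h, with no overlap between the times. It fell by 0.58 on the log2 scale (SE 0.18, edgeR adjusted p = 0.0444) and was the only locus pair called among the 34 tested. Of all 67728 pairs tested, 2.62% were called, 2.04% lower and 0.576% higher, so 1 of 34 is near the background. The call was lost without any 1 of the 6 libraries, with adjusted p from 0.0656 to 0.278. DESeq2 gave it no adjusted p.

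The strongest pair, with the bin 20 kb upstream, had 46.3, 50.01 and 48.1 CPM at 0 h and 31.3, 35.8 and 36.3 CPM at 24 h. Every 24 h library was below every 0 h library. Its log2 change was -0.35 ± 0.11 (SE, edgeR adjusted p = 0.0661), which missed the threshold. Contact totals, chromosome 8 totals, libraries kept separate and pairs of at least 20 kb brought it under the threshold (edgeR adjusted p from 0.0253 to 0.0392), while DESeq2 gave 0.294. Contact totals moved the median of all tested pairs to -0.098, and chromosome 8 totals that of chromosome 8 pairs to -0.091. Without a library the change was -0.38 to -0.30. The fits without a library that kept 2 replicates per time did not call it (edgeR adjusted p from 0.0944 to 0.184). For the 3 remaining upstream pairs, the counts of joined libraries were summed and scaled to the contacts of all chromosomes. Both 24 h replicates then lay below both 0 h replicates, as in 31.8% of all tested pairs. The log2 changes were -0.16 ± 0.21, -0.32 ± 0.22 and -0.36 ± 0.19 (SE) at 30, 40 and 50 kb, and none passed the test. Library by library, the bin 30 kb upstream did overlap, with 8.11, 9.05 and 7.34 CPM at 0 h and 4.73, 6.96 and 8.21 at 24 h. For the bin 50 kb upstream the libraries had 9.40, 14.3 and 8.86 CPM at 0 h and 6.79, 8.75 and 7.21 at 24 h.

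On the gene-body side the changes were in both directions and none passed the test. The Zfp42 and Triml2 pair had 9.77, 13.3 and 14.4 CPM at 0 h and 8.86, 11.5 and 7.46 CPM at 24 h. The times overlapped, and the log2 change was -0.24 ± 0.18 (SE; 95% interval from the SE -0.59 to 0.10). The parallel 130 kb pair had 7.93, 12.9 and 10.1 CPM at 0 h and 10.04, 9.15 and 9.95 CPM at 24 h, a change of 0.05 ± 0.18 (SE; interval -0.31 to 0.41). Its sign turned with contact totals, which gave -0.05. The bin 20 kb away moved from 9.22, 11.7 and 11.4 to 11.5, 11.9 and 11.9 CPM, a change of 0.27 ± 0.17. Of the 5 upstream pairs 5 were negative, with a median of -0.35, and of the 5 gene-body pairs 2 were negative, with a median of 0.05. The difference between the sides was not tested.

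**Figure D5:**
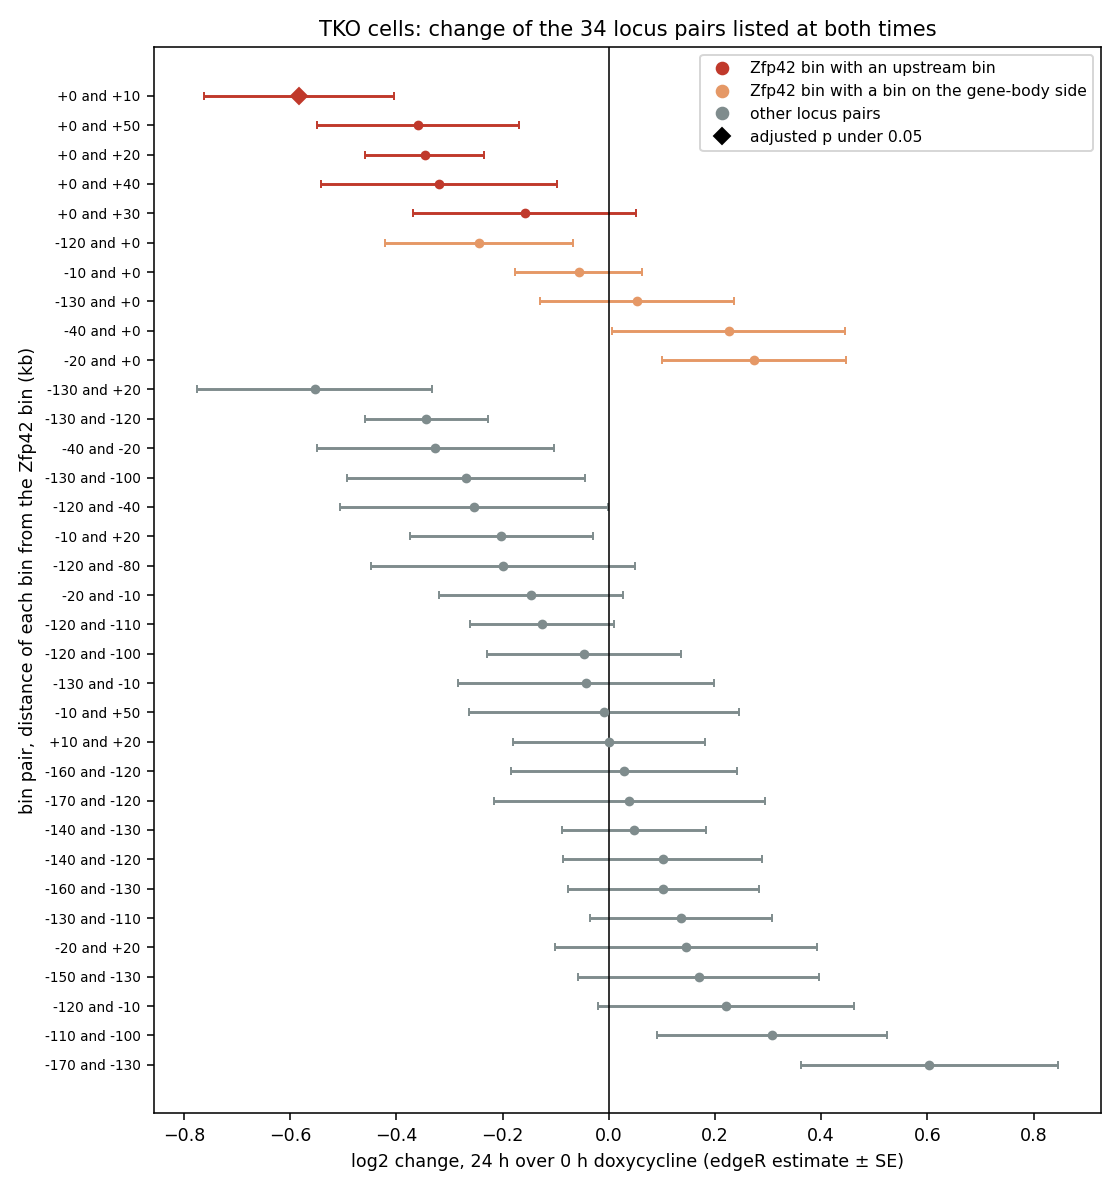
Log2 change from 0 h to 24 h of doxycycline for the 34 locus pairs listed at both times (edgeR estimate ± SE), each pair named by the distance of its bins from the Zfp42 bin in kb. Red points pair the Zfp42 bin with an upstream bin and orange points with a bin on the gene-body side, and the diamond passed an adjusted p of 0.05. The 5 red points lie left of 0, and the other pairs lie on both sides.

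Over the whole locus the 34 pairs had a median log2 change of -0.05, beside 0.01 for all tested pairs, and 19 (55.9%) were negative, beside 48.9% of all. In 13 (38.2%) both 24 h replicates were below both 0 h replicates, against 31.8% of all tested pairs. At an unadjusted p under 0.05, 4 of the 34 were lower, against 8.01% of all tested pairs. The share of all tested pairs with both 24 h replicates above both 0 h replicates was not counted. At the locus 2 pairs were of this kind. The pair with the greatest fitted change of the 34 was 1 of these: 43130001 and 43170001 had 4.06, 3.81 and 4.56 CPM at 0 h and 4.43, 6.96 and 5.47 CPM at 24 h, a change of 0.60 ± 0.24 (SE, adjusted p = 0.225). Another drop without a call joined 43170001 and 43180001 beside Triml2, with 40.7, 42.9 and 43.3 CPM at 0 h and 27.2, 30.4 and 33.8 CPM at 24 h, a change of -0.34 ± 0.12 (SE, adjusted p = 0.0834). The pair from that bin to the bin 20 kb upstream of Zfp42, 150 kb apart, had 8.48, 9.76 and 6.58 CPM at 0 h and 7.09, 4.38 and 4.73 CPM at 24 h, a change of -0.55 ± 0.22 (SE, adjusted p = 0.187). Summed over the 34 pairs, the libraries had 18.4, 21.0 and 20.4 contacts per M at 0 h and 16.5, 17.7 and 16.4 at 24 h. The replicate means were 19.5 ± 1.63 and 17.1 ± 0.836 (SD, n = 2 each), a log2 ratio of -0.20. On that scale, contact totals without TMM, all tested pairs had a median change of -0.098 and 64.7% were negative. The 2-sided exact permutation p was 0.333, the smallest that 2 against 2 replicates allow. With the libraries kept separate it was 0.1, likewise the smallest.

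The share of locus pairs that left the list by 24 h was near that of all pairs. Of the 47 pairs at 0 h, 13 were not listed at 24 h, against 27.4% of all pairs. The other 34 (72.3%) were kept, against 72.6% of all pairs. Of the 37 pairs at 24 h, 3 were not listed at 0 h, against 19.6% of all pairs. Of the 10 pairs of 100 kb or more listed at 0 h, 5 were absent at 24 h and 0 were new. Listed pairs of such spans also became fewer on the whole of chromosome 8. They fell from 31 to 22 at 110 kb, 31 to 19 at 120 kb, 20 to 13 at 130 kb and 19 to 10 at 150 kb. The share of all pairs of 100 kb or more that left was not computed. At the locus, the other 8 pairs that left and all 3 that were new were shorter. The strongest of those that left joined Triml2 to the bin 20 kb upstream of Zfp42, at 7.69 ± 1.12 CPM (SD, n = 2) and 18.1 times the expected count, and ranked 1 of 22 pairs of its span at 0 h. The Zfp42 bin itself kept 10 of its 11 pairs. It lost the bin 50 kb away on the gene-body side (4.11 ± 0.0804 CPM at 0 h) and gained the bin 30 kb away (4.02 ± 0.618 CPM at 24 h), both near the filter of 3 CPM per library. The deposited 24 h list was shorter than the 0 h list, with 84256 against 93248 pairs.

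Other genes were compared with Zfp42 by the number of pairs touching their bins in the 9 lists, on a log2 scale with a pseudocount of 1. Among the 12695 annotated genes the nearest by Euclidean distance was Tet1, an enzyme that oxidises methylcytosine, at a distance of 1.13. Tet1 had 11, 13 and 13 H3K27ac pairs in ES and in TKO at 0 h and 24 h, 3 in ES KLF4 and 0 in the other 5 lists. Terf1, a telomere-binding protein, Tdgf1, a co-receptor of Nodal signalling, and Rnf135, a ubiquitin ligase, followed at 1.14, 1.18 and 1.19, and Dgke and Dgkeos, which share a bin, at 1.22. Each of these 6 genes had 0 pairs in MEF H3K27ac, MEF Hi-C, day 3 KLF4 and ES Hi-C. In day 6 KLF4 all 6 had 0 pairs and Zfp42 had 1. That pair ranked 72 of the 87 listed chromosome 8 pairs of its span and was lost with a stricter p-value. Fbxo15, which is not among the 6, also had 1 pair at day 6.

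Among 26 other pluripotency genes, 24 had an annotated bin, and all 24 had more H3K27ac pairs in ES than in MEF. Every annotated gene had H3K27ac pairs in TKO cells, since only the TKO lists name genes, so this count was partly set in advance. The share over all 12695 annotated genes was not counted. MEF H3K27ac held 0 pairs for 21 of the 24 genes, and 9 had 0 in both MEF lists and at day 3, as Zfp42 did. Their median was 7.5 ES pairs, against 11 for Zfp42, and 8 of them had more than Zfp42, with Fbxo15 highest at 31. In the TKO comparison, 199 pairs of these 24 genes were tested at 24 h against 0 h, of which 13 were called lower and 0 higher, in 7 genes, beside 2.04% lower and 0.576% higher among all tested pairs. Nanog, the homeodomain factor of naive pluripotency, had 3 of 17 called lower, and Tbx3, Tfcp2l1, Dppa5a and Tet2 had 2 each. For Zfp42, 1 of 10 was called lower, the call that was lost without any 1 library.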

How the data were processed

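Reads were aligned with Bowtie2 2.2.3 to mm10, per the submitters' processing notes, and the contact caller is not given in the sources used here. Per the file headers, the deposited lists hold raw counts, CPM, a distance-normalized ratio, a p-value and an FDR for pairs of 10 kb bins. The deposited CPM of HiChIP equalled the count over the contacts of the same chromosome, the deposited Hi-C signal is scaled by constants of unstated origin, and the deposited ratio equalled the count over what the authors expected for that chromosome and span; replicate 4 of ES KLF4 and of day 6 broke this rule and was left out of mean ratios. The deposited score of the domain files was not used.

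Members, gene lists and tests were chosen with earlier results of these data known. All pairs touching the Zfp42 bin were named, and for the other bins the strongest pairs of each list and every called pair; the pair of 150 kb, the pair across the Zfp42 gene in Hi-C and the pair of 140 kb were chosen after their values were seen. Pairs in both lists of a comparison were tested on counts, with only the 2 groups compared in the fit, using edgeR 4.0.16 (R 4.3.3; filterByExpr, TMM on contact totals, quasi-likelihood test) and Benjamini-Hochberg adjustment over all pairs tested, at a threshold of 0.05. Libraries were joined where their counts, over pairs with 6 CPM or more, gave a chi-square p of 0.05 or more and another pair of libraries of the group differed. The TKO 0 h join was close to that limit. On simulated 2-fold changes of 200 pairs the fit recovered 67% (TKO, 67723 pairs), 78% (TKO 0 h against ES, 58572 pairs) and 88.5% (KLF4 day 6 against ES, 2075 pairs). The fitted TKO changes at the locus were smaller than 2-fold, and recovery of smaller changes was not simulated. PCR copies are not independent molecules, so sampling noise here covers counting error only. The 5 genes nearest to Zfp42 were named, with a tie at the last. Python 3.11.15, numpy 2.4.6, pandas 2.3.3 and matplotlib 3.10.9 were used, with DESeq2 1.42.0 among the alternatives.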

Additional observations from a re-analysis of the deposited data

Results flagged for a closer look

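In ES KLF4 the pair joining 43170001 and 43180001, beside Triml2, had 13.6 CPM in replicate 3, against 8.48, 8.53 and 8.498 CPM in replicates 1, 2 and 4. This gap exceeded Dixon's 95% critical value for 4 samples. It was the only such value among the 11 sets of 4 libraries examined, and chance gives about 1 in 20. The pair lies outside the tests of the report, since day 6 does not list it.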

How the results depend on the processing

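For TKO at 24 h against 0 h, the 1 locus pair called became 3 with contact totals, with chromosome 8 totals, with all libraries separate and with the replicate block, all lower, and 0 with DESeq2, which gave an adjusted p for 5 of the 34 pairs and an unadjusted p under 0.05 for 2. Leaving out each library gave 0 to 0. Over all tested pairs the 1774 calls became 2825 with contact totals, 882 at 20 kb or more, 105 with DESeq2 and 1028 to 1205 without a library. Signs turned for the pair of 130 kb (-0.051 with contact totals, -0.060 with chromosome 8 totals, -0.12 to 0.22 without a library), for the pair of 43160001 and 43170001 (0.05; -0.052, -0.061, and -0.035 to 0.17), and for the Zfp42 bin with the adjacent gene-body bin (-0.06; -0.19 to 0.025 without a library). The summed contacts kept their direction, with log2 ratios of -0.28 to -0.18 without a library.

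For TKO at 0 h against ES, 1 call became 6 with contact totals, 11 with chromosome 8 totals, 3 with the replicate block, 0 with DESeq2 (1 pair at an unadjusted p under 0.05) and 0 to 3 without a library. It was 0 without TKO 0 h replicate 1 and 3 without replicate 3. All calls by either total were higher in TKO, and the called pair changed to -0.21 and 0.082 under them. Of all tested pairs 9678 were called, 18163 with contact totals and 1518 with DESeq2. The KLF4 pair of day 6 and ES stayed called in each fit that gave an adjusted p (0.0320 at most), at 1.14 to 1.88. In the same comparison 70 calls over all pairs became 1159 with contact totals, 127 with the replicate block and 11 to 90 without a library.

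The replicate numbers did not pair the libraries: deviations of same-numbered libraries correlated at -0.00918 to 0.00469 for TKO, -0.0139 and -0.00601 for TKO 0 h and ES, and -0.0210 to 0.000430 for KLF4. No locus pair was common to the lists of MEF and ES (H3K27ac, Hi-C) or of day 3 and either later KLF4 list, so these tests and the summed contacts of MEF and ES were not run.

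Listed pairs fell to 30 of 47 in TKO 0 h with lists of equal length, from 1 to 0 at day 6 with a stricter p-value, and from 10 to 6, 6 and 4 in ES KLF4 with a stricter p-value, a minimum of 20 kb and equal length. Depth limits single pairs: 9 to 16 counts per library at day 6. The cause of these changes was not tested.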
